A study of Bos taurus with 12 samples.

Results

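Cholesterol synthesis was followed here through its enzymes in elongated cattle conceptuses of 3 origins and in donor fibroblasts. Of 8 enzymes listed by symbol (HMGCS1, IDI1, FDPS, FDFT1, SQLE, CYP51A1, EBP and DHCR7), 7 had at least 1 probe set annotated to that single symbol, among 9155 genes so named on the array. IDI1, the isomerase that balances the isoprene units of the pathway, had none and is not analysed here. The 7 genes had 10 probe sets among 24016, of which 8 were bright enough to be tested. HMGCS1 had 2 probe sets and FDFT1 had 3, and each gene is represented by its brightest one, with the others given beside it.

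The samples were 12 arrays in 4 groups of 3. SCNT conceptuses came from somatic cell nuclear transfer, a form of cloning that puts a fibroblast nucleus into an enucleated oocyte. IVP conceptuses came from oocytes fertilised and cultured in vitro, and AI conceptuses from in vivo embryos of inseminated cows. Embryos of all 3 origins were moved into synchronised recipient cows as blastocysts on day 7 and recovered on day 16, at comparable length, when the trophoblast has grown into a filament but has not yet attached. The fourth group, FB, was made of the fibroblasts that had served as nuclear donors, although the titles and the tissue field of these arrays read elongated embryo. The labels leave unsaid whether an array stands for 1 conceptus or a pool, so p-values reflect only the variation among arrays called replicates, part of which may be technical.

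Cholesterol is built from acetyl-CoA by way of mevalonate, isoprene units, squalene and lanosterol, and the last steps trim and rearrange lanosterol into cholesterol. The genes of the pathway are known targets of the sterol-sensing transcription factor SREBP2, encoded by SREBF2, which is held in the endoplasmic reticulum by INSIG proteins when sterols are plentiful. A trophoblast that grows as fast as that of cattle needs sterol for membrane, which cells obtain by synthesis or by uptake of lipoprotein cholesterol.

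Values are log2 signals, so a difference of 1 is a doubling of signal, and levels are compared between groups within a probe set, never between probe sets. Between 26.5% and 27.7% of all probe sets exceeded log2 4 on each array. Signals of the spike-in controls averaged 7.69 to 8.61 over the conceptus arrays, and IVP 2, IVP 3 and AI 2 stood apart at 8.57 to 8.61. On the FB arrays they averaged 7.33 to 7.52, below every conceptus array, and the part of this in the comparisons with FB was not tested. The GAPDH probe sets at the 3′ and 5′ ends, whose gap grows as RNA degrades, differed by 0.28 to 0.45 in SCNT, 0.35 to 0.89 in IVP, 0.21 to 0.38 in AI and 0.01 to 0.06 in FB, and the part of this gap in the results was not tested. Of 11 trophoblast markers on the array, 9 exceeded log2 4 on every conceptus array (KRT8 and ELF5 did not) and 0 did on any FB array. Of 12 fibroblast markers, FN1, TAGLN and THY1 exceeded log2 4 on every conceptus array and ACTA2 on 2 AI arrays, and 11 did on every FB array, THY1 being the exception. FN1 read 10.38 to 11.52 on the conceptus arrays and 10.69 to 10.92 on the FB arrays, so it does not mark fibroblasts here, whereas COL1A1, COL1A2, COL3A1, VIM, LUM, DCN, POSTN and S100A4 stayed at or below log2 4 on the conceptus arrays. The 6 markers of maternal endometrium lay at or below log2 4 on all 12 arrays.

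**Figure D1:**
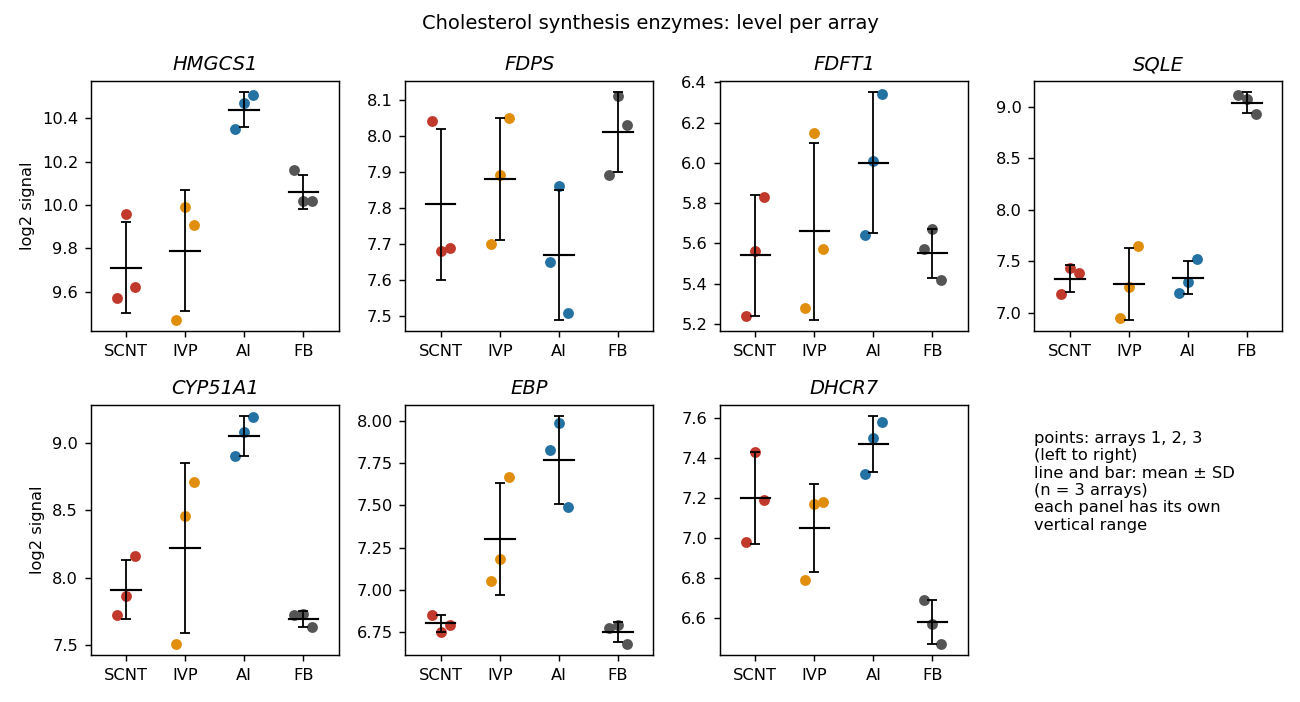
Log2 signal of the 7 enzymes on each array, 1 panel per gene in pathway order, with SCNT, IVP, AI and FB from left to right (points are the 3 arrays, bars the mean and SD). HMGCS1, CYP51A1 and EBP were lower on every SCNT array than on any AI array, and SQLE was at most 7.65 on the conceptus arrays and at least 8.93 on the FB arrays.

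SCNT conceptuses had less signal than AI conceptuses for 3 of the 7 enzymes: HMGCS1 at the head of the pathway, and CYP51A1 and EBP in its lanosterol branch. The genes between those points, FDPS, FDFT1 and SQLE, did not pass, with log2 differences of 0.13, -0.46 and 0.00. IVP conceptuses lay between the SCNT and AI groups for CYP51A1 and EBP, but only HMGCS1 passed the test against AI among the 7 genes. In tissue samples of this kind, fewer cells of a type and less RNA per cell cannot be told apart.

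HMGCS1, the cytosolic HMG-CoA synthase that joins acetyl-CoA to acetoacetyl-CoA, had signals of 9.57, 9.96 and 9.62 on the SCNT arrays. On the IVP arrays it had 9.47, 9.99 and 9.91, and on the AI arrays 10.35, 10.47 and 10.51. All 3 AI arrays lay above every SCNT and every IVP array, and the AI arrays differed from each other least (SD 0.21, 0.28 and 0.08 for SCNT, IVP and AI, n = 3 each). HMGCS1 was 1.66-fold lower in SCNT than in AI (log2 difference -0.73, 95% interval -1.10 to -0.36, limma adjusted p = 0.00918). It was 1.57-fold lower in IVP than in AI (log2 difference -0.65, -1.02 to -0.29, limma adjusted p = 0.0218). The IVP call was lost without IVP 1, at a log2 difference of -0.49 and a limma adjusted p of 0.0745, and without AI 3, at -0.62 and 0.0655. The second HMGCS1 probe set read 3.15 to 4.11 over all 12 arrays, too dim to be tested.

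FDPS, the synthase that makes farnesyl diphosphate, the branch point from which sterols, dolichol, ubiquinone and prenyl groups are made, read 8.04, 7.68 and 7.69 on the SCNT arrays. It read 7.70, 7.89 and 8.05 on the IVP arrays and 7.65, 7.86 and 7.51 on the AI arrays. The arrays of the 3 groups overlapped, and FDPS was the only one of the 7 whose mean was above that of AI in both other groups. The log2 difference from AI was 0.13 in SCNT (-0.21 to 0.48) and 0.21 in IVP (-0.14 to 0.55), with limma adjusted p-values of 0.559 and 0.385.

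FDFT1, squalene synthase, commits farnesyl diphosphate to sterols. Its brightest probe set read 5.24, 5.56 and 5.83 on the SCNT arrays, 5.28, 6.15 and 5.57 on the IVP arrays, and 5.64, 6.01 and 6.34 on the AI arrays, with overlap between all groups. Its log2 difference from AI was -0.46 in SCNT (-1.01 to 0.10) and -0.33 in IVP (-0.88 to 0.22), and neither passed (limma adjusted p = 0.196 and 0.382). A second FDFT1 probe set read 4.64, 4.77 and 5.29 on the SCNT arrays, 4.70, 4.97 and 3.78 on the IVP arrays, and 5.29, 5.45 and 5.85 on the AI arrays. The highest SCNT array only just missed the lowest AI array, and IVP 3 fell below the level at which probe sets were tested. That second probe set passed in IVP against AI, at 2.06-fold lower (log2 difference -1.05, -1.69 to -0.40, limma adjusted p = 0.0320), and did not in SCNT (-0.63, adjusted p = 0.132). The IVP call was lost when any 1 of AI 1, AI 2, AI 3, IVP 1 or IVP 3 was left out, with a limma adjusted p of up to 0.104. The brightest and the second probe set both had negative IVP differences with overlapping intervals, and only the second passed. The third FDFT1 probe set stayed at the floor of the table, 2.42 to 2.44.

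SQLE, squalene epoxidase, whose reaction needs oxygen and makes the epoxide that is then cyclised, read 7.18, 7.43 and 7.39 on the SCNT arrays. It read 6.95, 7.25 and 7.65 on the IVP arrays and 7.19, 7.30 and 7.52 on the AI arrays. The conceptus groups overlapped fully, with means of 7.33, 7.28 and 7.34 for SCNT, IVP and AI. The 95% interval of the log2 difference from AI ran from -0.40 to 0.39 in SCNT and from -0.45 to 0.34 in IVP, so a fall of up to 1.32-fold in SCNT or 1.37-fold in IVP lies within the error.

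CYP51A1, the cytochrome P450 that removes a methyl group from lanosterol, spread most widely of the 7 over the conceptus arrays, with a range of 1.68. It read 7.72, 7.86 and 8.16 on the SCNT arrays, 7.51, 8.46 and 8.71 on the IVP arrays, and 8.90, 9.08 and 9.19 on the AI arrays. All 3 AI arrays lay above all others, and IVP 1 lay apart below the other IVP arrays. CYP51A1 was 2.21-fold lower in SCNT than in AI (log2 difference -1.14, -1.73 to -0.55, limma adjusted p = 0.0102). In IVP the log2 difference was -0.83 (-1.42 to -0.24), with a limma adjusted p of 0.0539. That value depended on the arrays used: it was -0.47 without IVP 1 (limma adjusted p = 0.115). It was -1.54 without IVP 2, IVP 3 and AI 2, the arrays with high control signal, which left IVP 1 alone in its group.

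EBP, the isomerase that shifts a double bond within the sterol rings, read 6.85, 6.75 and 6.79 on the SCNT arrays, an SD of 0.05. It read 7.05, 7.18 and 7.67 on the IVP arrays and 7.83, 7.99 and 7.49 on the AI arrays. Each SCNT array lay below each IVP array and each AI array, whereas IVP 3 lay above AI 3. EBP was 1.97-fold lower in SCNT than in AI (log2 difference -0.97, -1.38 to -0.57, limma adjusted p = 0.00370), while in IVP the log2 difference was -0.47 (-0.87 to -0.07, adjusted p = 0.101).

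DHCR7, the reductase of the final step, mutated in Smith-Lemli-Opitz syndrome of humans, read 6.98, 7.43 and 7.19 on the SCNT arrays. It read 6.79, 7.17 and 7.18 on the IVP arrays and 7.32, 7.50 and 7.58 on the AI arrays. The AI arrays lay above all IVP arrays, and SCNT 2 lay above AI 1. The log2 difference from AI was -0.27 in SCNT (-0.63 to 0.09, limma adjusted p = 0.240) and -0.42 in IVP (-0.78 to -0.06, limma adjusted p = 0.0990).

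Counted over genes, 3 of 7 enzymes were lower and 0 higher in SCNT than in AI, where 11.4% of the 6892 probe sets tested were called lower and 16.2% higher. At an unadjusted p under 0.05, 3 were lower and 0 higher, where 2778 of the 6892 probe sets passed in either direction. In IVP against AI, 1 of 7 was lower and 0 higher, with 9.49% of all probe sets lower and 8.42% higher. With an unadjusted p under 0.05, 4 of 7 were lower and 0 higher in IVP, where 2279 of the 6892 probe sets passed in either direction. The median log2 difference of the 7 enzymes was -0.46 in SCNT and -0.42 in IVP, against 0.08 and 0.02 over all probe sets tested. Both comparisons use the same AI arrays, so they are not separate evidence of a direction. The 3 calls in SCNT held when any single array was left out, and when the 3 conceptus arrays numbered 1 were left out together, a setting chosen after seeing the data. Without the filter on dim probe sets, only EBP of the 3 passed (limma adjusted p = 0.0457), with adjusted p-values of 0.0659 for HMGCS1 and 0.117 for CYP51A1 and unchanged log2 differences.

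Compared directly, SCNT and IVP conceptuses did not differ in any of the 7 enzymes by limma, against 0.348% of all probe sets called lower and 0.232% higher in SCNT. At an unadjusted p under 0.05, 1 of 7 was lower and 0 higher, where 876 of all 6892 probe sets tested passed in either direction. That gene was EBP, with a log2 difference of -0.50 (-0.91 to -0.10, limma adjusted p = 0.287) and no overlap between the groups' arrays. For CYP51A1 the log2 difference was -0.31 (-0.90 to 0.28), for HMGCS1 -0.08 (-0.44 to 0.29) and for DHCR7 0.15 (-0.21 to 0.51). The CYP51A1 value ran from -0.67 without IVP 1 to -0.07 without IVP 3, and neither passed. Without the 3 arrays of high control signal, which left IVP 1 alone in its group, the CYP51A1 difference was 0.41 and that of HMGCS1 0.24. These intervals include falls of up to 1.87-fold for CYP51A1 and 1.36-fold for HMGCS1, so equality of SCNT and IVP was not shown.

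**Figure D2:**
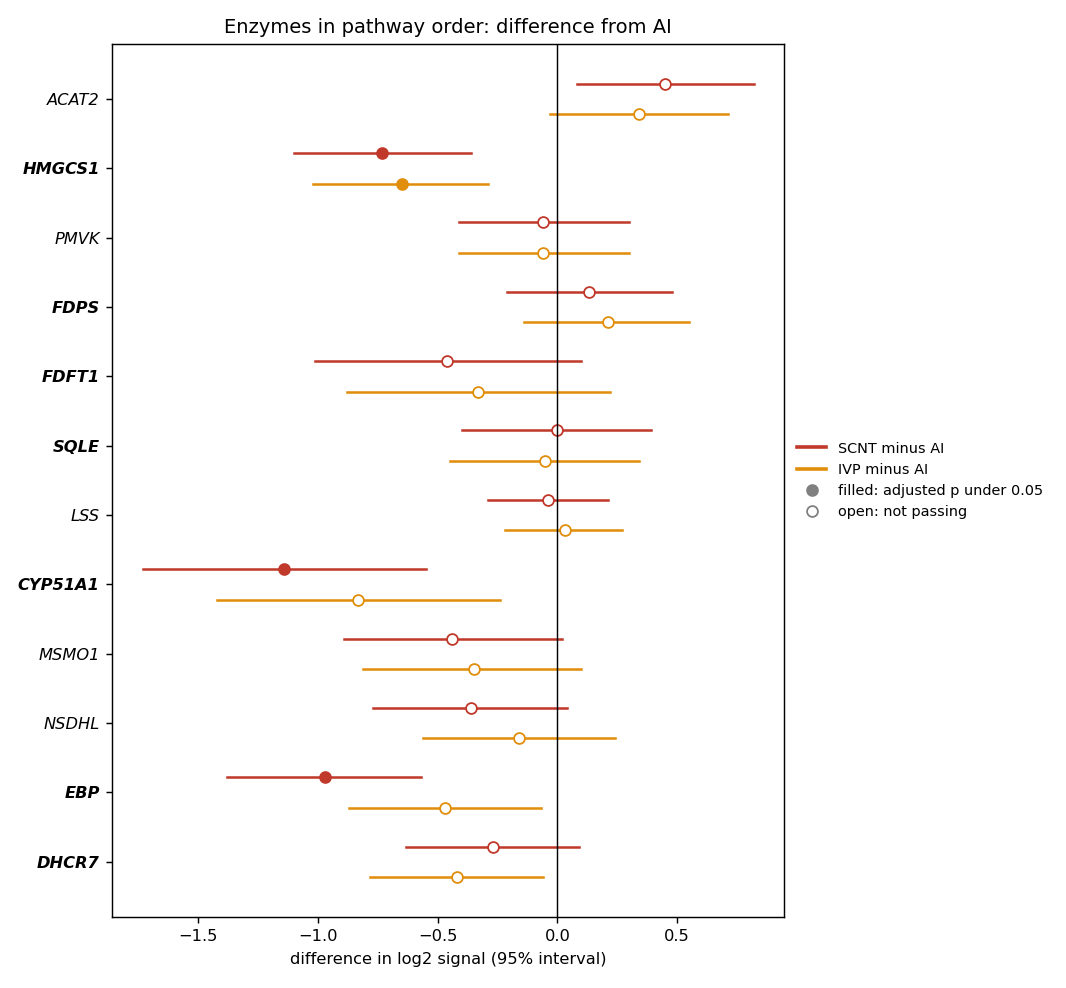
Log2 difference from AI (x axis, points with 95% intervals) of 12 tested enzymes in pathway order from top to bottom, for SCNT and IVP. Bold names are the 7 enzymes described and the others are from a list of further pathway enzymes. Filled points passed at an adjusted p under 0.05: HMGCS1, CYP51A1 and EBP in SCNT and HMGCS1 in IVP.

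Of the other enzymes of the pathway, 8 genes had a probe set and 5 were bright enough to be tested among conceptuses. None of the 5 passed in SCNT against AI, in IVP against AI or in SCNT against IVP by limma. With an unadjusted p under 0.05 the counts were 1, 0 and 0, against 2778, 2279 and 876 of all 6892 probe sets tested. That 1 gene was ACAT2, the thiolase that supplies acetoacetyl-CoA to HMGCS1. ACAT2 read 7.98, 8.11 and 8.02 on the SCNT arrays, 7.67, 8.02 and 8.12 on the IVP arrays and 7.33, 7.58 and 7.87 on the AI arrays. Its log2 difference from AI was thus positive, at 0.45 in SCNT (0.08 to 0.82, adjusted p = 0.0712) and 0.34 in IVP (-0.03 to 0.71, adjusted p = 0.182). MSMO1, the oxidase that acts on methylsterols downstream of CYP51A1, and NSDHL, the dehydrogenase that acts with it, had negative differences that did not pass. For MSMO1 these were -0.44 in SCNT (adjusted p = 0.139) and -0.35 in IVP (0.261), and for NSDHL -0.36 (0.163) and -0.16 (0.576). PMVK and LSS, which phosphorylate phosphomevalonate and cyclise the squalene epoxide, were close to the test limit, and their differences were between -0.06 and 0.03.

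**Figure D3:**
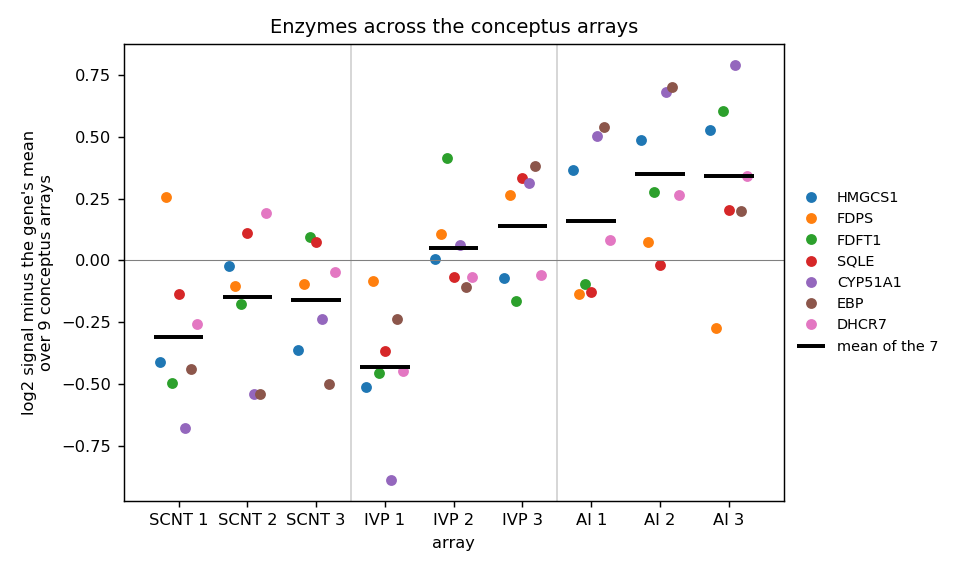
Log2 signal of each enzyme minus its mean over the 9 conceptus arrays (y axis), by array (x axis), with black bars for the mean of the 7. The mean was -0.43 on IVP 1, the lowest, and 0.16 to 0.35 on the AI arrays.

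The enzymes' lowest values within a group were often on the same array, and whether they vary together was not tested. IVP 1 was the lowest IVP array for 7 of 7 enzymes and for 5 of the 5 other enzymes tested, while 26.8% of all probe sets had their lowest IVP value on it. SCNT 1 was the lowest SCNT array for 5 of 7 enzymes and 4 of the 5 others, against 39.0% of all probe sets. AI 1 was the lowest AI array for 5 of 7 enzymes and 2 of the 5 others, against 27.1% of all probe sets. FDPS and EBP were lowest on other arrays, SCNT 2 and AI 3. Averaged over the 7 genes after centring, the level was -0.31, -0.15 and -0.16 on the SCNT arrays, -0.43, 0.05 and 0.14 on the IVP arrays, and 0.16, 0.35 and 0.34 on the AI arrays. The AI arrays were thus highest, IVP 1 was below every SCNT array, and the IVP arrays differed from each other more than the SCNT or the AI arrays did. The labels give no link between arrays of the same number, and a link limited to some genes was not tested. The control signal on IVP 1 was 8.08, against 8.61 and 8.57 on IVP 2 and IVP 3, and its part in the enzymes' values was not tested. The probe sets whose centred profile lay nearest to this mean over the 9 arrays were ATP2C1 (root mean square difference 0.12), DHRS3 (0.13), BCKDHB (0.14), QPCTL (0.15) and CA8 (0.15), of 2232 candidates. Of the enzymes themselves, DHCR7 (0.15) and HMGCS1 (0.16) lay nearest to it and FDPS (0.34) and CYP51A1 (0.33) farthest. Each enzyme is itself part of that mean, and the candidates were limited to probe sets with an SD of at least 0.28, that of the mean. The distances of the enzymes are therefore not comparable with those of the other genes.

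Among genes that control the pathway, SREBF2 was lower in SCNT than in AI by 1 of its 2 probe sets. The other stayed at 2.42 to 2.44 on all 12 arrays. The brighter SREBF2 probe set read 4.24, 4.18 and 3.84 on the SCNT arrays, 4.25, 4.25 and 4.42 on the IVP arrays, and 4.70, 4.54 and 5.30 on the AI arrays, all near the level below which probe sets were not tested. It differed by 1.70-fold between SCNT and AI (log2 difference -0.76, limma adjusted p = 0.0158), a call lost without SCNT 3 (adjusted p = 0.0598), without the 3 conceptus arrays numbered 1 (0.0660) or without the level filter (0.119). In IVP its log2 difference was -0.54 (limma adjusted p = 0.0797). INSIG1, itself a target of SREBP2, read 4.99, 5.55 and 5.93 on the SCNT arrays, 5.11, 5.83 and 5.80 on the IVP arrays and 6.13, 6.26 and 6.06 on the AI arrays. The AI arrays lay above all others, and the log2 difference was -0.66 in SCNT (adjusted p = 0.0729) and -0.57 in IVP (0.140). The SCNT difference of INSIG1 passed without SCNT 3 (-0.88, limma adjusted p = 0.0330) and with all 12 arrays in the fit (0.0458). SREBF1, whose product acts mainly on fatty acid genes, differed from AI by 0.34 in SCNT (adjusted p = 0.238) and 0.32 in IVP (0.304). In all, 1 of 8 tested control genes was lower and 0 higher in SCNT than in AI, and 0 of 8 passed in IVP by limma, where 3 had an unadjusted p under 0.05. The shares over all probe sets tested were 11.4% lower and 16.2% higher in SCNT, and 9.49% lower and 8.42% higher in IVP. An unadjusted p under 0.05 was reached in IVP by 2279 of the 6892 probe sets tested.

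Of 4 tested genes of cholesterol uptake and lysosomal release, 2 were higher and 1 lower in SCNT than in AI, and 1 was higher and 1 lower in IVP. Among all probe sets tested, 16.2% were called higher and 11.4% lower in SCNT, and 8.42% higher and 9.49% lower in IVP. SCARB1, the receptor that takes cholesterol from high-density lipoprotein, read 7.15, 8.15 and 8.12 on the SCNT arrays, 7.99, 7.59 and 7.38 on the IVP arrays, and 5.58, 6.01 and 5.16 on the AI arrays. No AI array came within 1 log2 unit of an SCNT or IVP array. SCARB1 was 4.67-fold higher in SCNT than in AI (limma adjusted p = 5.65e-04) and 4.19-fold higher in IVP than in AI (adjusted p = 0.00131). NPC2, the soluble lysosomal protein that hands cholesterol to NPC1, was 4.04-fold lower in SCNT (8.75, 8.44 and 8.38, against 10.24, 10.60 and 10.78 in AI, limma adjusted p = 5.60e-05). In IVP, at 8.70, 9.06 and 9.07, it was 3.02-fold lower than in AI (limma adjusted p = 3.13e-04). NPC1 was 2.00-fold higher in SCNT than in AI (limma adjusted p = 0.0122, lost without SCNT 2 at 0.0534), and in IVP its log2 difference was 0.67 (adjusted p = 0.0791). The fourth gene, MYLIP, which encodes a ubiquitin ligase of lipoprotein receptors, did not pass, with log2 differences of -0.53 in SCNT (limma adjusted p = 0.0859) and -0.07 in IVP (0.860).

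Marker lists also moved between the same groups, where many probe sets did. Against AI, 16.2% of all probe sets tested were called higher and 11.4% lower in SCNT, and 8.42% higher and 9.49% lower in IVP. Of 9 tested trophoblast markers, 3 were higher and 0 lower in SCNT than in AI, and likewise in IVP, and the summed signal of the 11 on the array was 15.69 to 15.86 in SCNT, 15.74 to 15.82 in IVP and 15.55 to 15.69 in AI. ASCL2, a transcription factor of trophoblast, read 7.80, 7.41 and 7.11 on the SCNT arrays, 7.68, 6.64 and 7.36 on the IVP arrays and 6.17, 5.75 and 5.61 on the AI arrays. The list did not move as a whole: 5 of the 9 had a positive and 4 a negative difference from AI in SCNT, and likewise in IVP. KRT19, for example, averaged 12.12 in SCNT, 12.33 in IVP and 12.48 in AI. Of 5 tested hypoblast and yolk sac markers, 3 were lower in SCNT than in AI and 2 in IVP, and the summed signal of the 11 on the array was 11.59 to 11.96 in SCNT, 12.04 to 12.29 in IVP and 11.87 to 12.38 in AI. GATA4, HNF4A, APOB, AFP and TTR stayed at or below log2 4 in all 3 groups. Of 8 blood and leukocyte markers on the array 3 were tested (ALAS2, CD48 and ITGB2), and all 3 were lower in SCNT and in IVP than in AI. ALAS2 and CD48 exceeded log2 4 only on AI arrays among the conceptuses. These genes were thus tested only because they were high in AI, and their direction is no separate result. Their list summed to 5.64 to 6.22 in SCNT, 5.57 to 6.51 in IVP and 8.58 to 9.52 in AI, while HBB and PTPRC lay at or below log2 4 on all arrays. The part of these cell types in the enzyme values was not tested.

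Each conceptus group was also compared with the donor fibroblasts, the source of the nuclei transferred into SCNT embryos. By the brightest probe set of each of the 7 enzymes, SQLE differed most from FB in each conceptus group. It read 6.95 to 7.65 over the conceptus arrays, against 9.11, 9.08 and 8.93 on the FB arrays, more than 1 log2 unit above every conceptus array. It was 3.26-fold lower in SCNT than in FB (log2 difference -1.71, -2.06 to -1.35, limma adjusted p = 9.54e-07), 3.38-fold lower in IVP (-1.76) and 3.25-fold lower in AI (-1.70). The 3 comparisons share the FB arrays.

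DHCR7 went the other way and read 6.79 to 7.58 over the conceptus arrays, against 6.69, 6.57 and 6.47 on the FB arrays, below every conceptus array. It was 1.54-fold higher in SCNT than in FB (log2 difference 0.62, limma adjusted p = 0.00167), 1.38-fold higher in IVP (0.47, adjusted p = 0.00994) and 1.85-fold higher in AI (0.89, adjusted p = 1.13e-04). The order of DHCR7 levels was thus AI, SCNT, IVP and FB from high to low, and the 3 conceptus groups did not separate from each other by the test.

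CYP51A1 and EBP set the conceptus groups apart in their distance from fibroblasts. On the FB arrays CYP51A1 read 7.72, 7.73 and 7.63, and EBP read 6.77, 6.79 and 6.68. For SCNT the arrays of both genes overlapped those of FB, with log2 differences of 0.22 (-0.32 to 0.76, limma adjusted p = 0.425) and 0.05 (-0.30 to 0.40, limma adjusted p = 0.792). For AI both genes were higher than in FB, CYP51A1 by 2.57-fold (limma adjusted p = 2.89e-04) and EBP by 2.03-fold (adjusted p = 9.36e-05). For IVP, EBP was 1.47-fold higher (limma adjusted p = 0.00758) and CYP51A1 had a log2 difference of 0.53 (-0.01 to 1.07, adjusted p = 0.0661). The IVP value of CYP51A1 was 0.89 and passed without IVP 1 (limma adjusted p = 2.01e-04). Leaving out the 3 arrays of high control signal left only IVP 1 in its group, the lowest IVP array for 7 of 7 enzymes. The IVP difference from FB was then -0.19 for CYP51A1. For EBP it was 0.30, against 0.55 with all arrays, and for DHCR7 0.21, against 0.47. The order of levels from high to low was AI, IVP, SCNT and FB for both genes. Neighbours in it that did not differ by the test were SCNT and FB, IVP and SCNT, and AI and IVP.

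HMGCS1 read 10.16, 10.02 and 10.02 on the FB arrays, between AI above and SCNT and IVP below, with no overlap. It was lower in SCNT than in FB (log2 difference -0.35, limma adjusted p = 0.0426) and higher in AI than in FB (0.38, limma adjusted p = 0.0309), and in IVP the log2 difference was -0.27 (adjusted p = 0.102). The SCNT call was lost without SCNT 1, SCNT 3 or any FB array (adjusted p up to 0.139), and the AI call without AI 2, AI 3, FB 2 or FB 3 (up to 0.0820) and after quantile normalisation (0.0666). FDPS read 7.89, 8.11 and 8.03 on the FB arrays and was lower in AI than in FB (log2 difference -0.34, limma adjusted p = 0.0397), a call lost without AI 1, AI 3, FB 2 or FB 3 (up to 0.141) and after quantile normalisation (0.109). Its log2 difference was -0.20 in SCNT (adjusted p = 0.187) and -0.13 in IVP (0.391).

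The probe sets of FDFT1 disagreed against fibroblasts. The brightest read 5.57, 5.67 and 5.42 on the FB arrays, among the conceptus values, and did not pass (log2 differences -0.01 in SCNT, 0.11 in IVP and 0.45 in AI, limma adjusted p = 0.967, 0.669 and 0.0996). The second read 6.19, 6.37 and 6.35 on the FB arrays, above every conceptus array, and was lower in all 3 groups, with log2 differences of -1.41 in SCNT, -1.82 in IVP and -0.77 in AI (limma adjusted p = 4.82e-04, 6.21e-05 and 0.0214). The AI call of the second was lost without AI 1, AI 2, FB 2 or FB 3 (adjusted p up to 0.0761). FDFT1 is therefore uncertain in these comparisons.

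**Figure D4:**
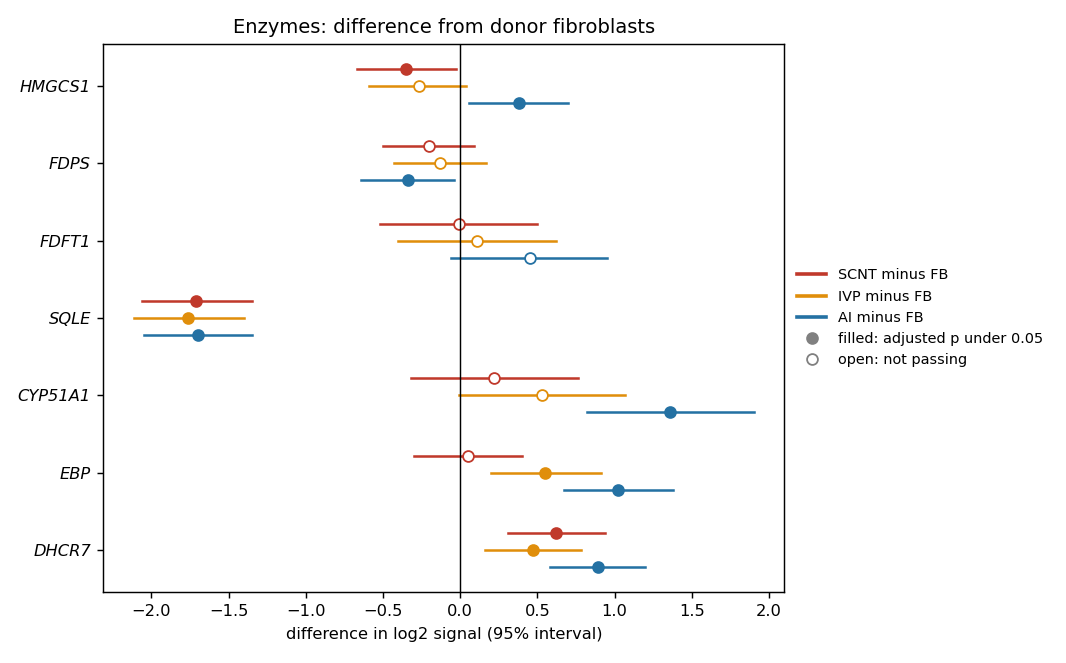
Log2 difference from FB (x axis, points with 95% intervals) of the 7 enzymes in pathway order from top to bottom, for SCNT, IVP and AI. Filled points passed at an adjusted p under 0.05: SQLE was lower in all 3 conceptus groups and DHCR7 higher in all 3, while CYP51A1 passed in AI only.

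Of the 7 genes, 1 was higher and 2 lower in SCNT than in FB, where 45.0% of the 8164 probe sets tested were called higher and 34.8% lower. In IVP 2 were higher and 1 lower than in FB, with 43.0% and 35.7% over all probe sets. In AI 4 were higher and 2 lower than in FB, with 41.6% and 35.6%. The median log2 difference of the 7 was -0.01, 0.11 and 0.45 in SCNT, IVP and AI, against 0.20, 0.14 and 0.11 over all probe sets tested. Most probe sets were called in each of these comparisons, and the share of enzymes called was no higher than that over all probe sets in SCNT and IVP.

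Further enzymes of the pathway were called in both directions against FB. ACAT2 was higher than in FB in all 3 conceptus groups, by 2.41-fold in SCNT, 2.25-fold in IVP and 1.77-fold in AI (limma adjusted p = 5.28e-06, 1.17e-05 and 2.25e-04). LSS was lower in all 3, with log2 differences of -0.68, -0.61 and -0.64 in SCNT, IVP and AI. TM7SF2, a sterol reductase, was at least 1.18-fold lower in all 3, since it lay near the floor in conceptuses, a call lost when values below log2 4 were set to 4 (limma adjusted p = 0.0597 to 0.0617). MSMO1 and NSDHL were higher than in FB in AI (log2 differences 0.46 and 0.44, limma adjusted p = 0.0381 and 0.0326), and in SCNT their differences were 0.03 and 0.08 and in IVP 0.11 and 0.28. Of 6 other enzymes tested, 1 was higher and 2 lower in SCNT, 1 higher and 2 lower in IVP, and 3 higher and 2 lower in AI. Over all probe sets tested, 45.0% were called higher and 34.8% lower in SCNT, 43.0% and 35.7% in IVP, and 41.6% and 35.6% in AI. TM7SF2 exceeded log2 4 only on FB arrays, so it was tested only because it was high there. LSS read 3.91 to 4.13 on the conceptus arrays, close to the level filter. INSIG1 was 3.16-fold lower in SCNT, 2.97-fold lower in IVP and 2.00-fold lower in AI than in FB (limma adjusted p = 4.71e-05, 7.81e-05 and 0.00240). SREBF2 was 1.49-fold higher in AI than in FB (limma adjusted p = 0.00995), with log2 differences of -0.19 in SCNT and 0.03 in IVP that did not pass.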

How the data were processed

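Total RNA from 10 mg of conceptus, or from cultured donor fibroblasts, was amplified, biotin-labelled and hybridised to Affymetrix GeneChip bovine arrays, as the labels' protocols state. The deposited table holds log2 signals, normalised by the authors, with GCRMA and limma as tools, per the submitters' processing notes. Tool versions and the set of arrays normalised together were not given in the sources used. Values ran from 2.42 to 13.66, and 112 control probe sets were left out. Symbols came from the array's annotation: 13292 probe sets had 1 symbol, 86 several and 10638 none.

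The log2 values were used as deposited. A probe set was tested if it exceeded log2 4 on 3 or more arrays of a fit, with limma 3.58.1 (R 4.3.3): 6892 among the 9 conceptus arrays, 8164 among all 12 arrays for comparisons with FB. Tests were two-sided and adjusted by Benjamini and Hochberg over all probe sets tested, with 0.05 as the threshold. Intervals are 95%. Folds against a group below log2 4 are lower bounds, with values below 4 set to 4. The procedure was tested on simulated data. With 3 arrays per group, the median standard error was 0.16 among conceptuses and 0.14 against FB.

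The members, the pathway and marker lists, the tests and the naming rule (all members, the main sterol regulators, and up to 4 called genes of each list) were chosen with earlier results of these data known. Nearest genes were ranked by root mean square difference of centred profiles over the 9 conceptus arrays. Other filters, thresholds, normalisations, variance models, sets of arrays, blocking on the replicate number and leaving out each array in turn were tried. No sequence was used, so promoter motifs were not analysed here.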

Additional observations from a re-analysis of the deposited data

How the results depend on the processing

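Of 768 member differences recomputed under other settings, 692 kept their direction and side of the threshold, 43 lost the call, 13 gained one, 20 that were not called under either setting changed sign, and 0 called ones did. For SCNT against AI, the main setting called 1902 probe sets and 3 enzymes. The counts were 918 probe sets at an adjusted p under 0.01, 984 with no level filter (and 1 enzyme) and 851 without the 3 conceptus arrays numbered 1, and leaving out 1 array gave 1190 to 1690 probe sets and 3 enzymes each time. For IVP against AI, 1234 probe sets and 1 enzyme were called. Probe sets numbered 487 at 0.01, 484 with no filter, 580 without the 3 arrays of high control signal, 381 without the arrays numbered 1, and 794 to 1163 with 1 array left out. Enzymes called in IVP were 0 at 0.01, with no filter or without the arrays numbered 1. They were 3 at 0.1, and 2 with trend and robust variance, with all 12 arrays in the fit or without the high-control arrays, and 0 to 3 with 1 array left out. For SCNT against IVP, 40 probe sets and 0 enzymes were called. Probe sets numbered 6 at 0.01, 90 at 0.1, 7 with no filter, 136 with all 12 arrays, 5 without the high-control arrays, 6 without the arrays numbered 1, and 9 to 33 with 1 array left out. Over all tested probe sets, deviations of same-numbered arrays of different groups from their group means correlated at -0.15 to 0.15 over 9 pairs, against -0.14 to 0.18 for 18 other pairs. The arrays numbered 1 were the lowest of their group for 5 of 7 enzymes in SCNT, 7 in IVP and 5 in AI. A link between same-numbered arrays that is limited to some genes was not tested. With the replicate number as a block, 23 probe sets were called in SCNT against IVP and 2 enzymes in IVP against AI, HMGCS1 and CYP51A1, and INSIG1 passed in SCNT against AI (adjusted p = 0.0381). Leaving out the high-control arrays left IVP 1 alone in its group, assumed to vary like the others. The number of arrays limits precision, with a median standard error of 0.16 among conceptuses.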

Other observations

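Branches that leave the pathway before sterols were also measured. NUS1, a subunit of the synthase that makes the dolichol precursor, read 7.92, 8.50 and 8.66 on the SCNT arrays, 8.37, 8.18 and 7.70 on the IVP arrays and 7.48, 7.75 and 7.79 on the AI arrays. It was 1.61-fold higher in SCNT than in AI (limma adjusted p = 0.0413), a call lost without any 1 of SCNT 2, SCNT 3 or the AI arrays (up to 0.135), and its second probe set was 1.81-fold higher (0.00514). PDSS1, which makes the side chain of ubiquinone, was 1.45-fold higher in SCNT than in AI (limma adjusted p = 0.0183), lost without SCNT 1, SCNT 2 or AI 3 (up to 0.0606). Of 8 tested genes of these branches, 2 were higher and 0 lower in SCNT than in AI, and 0 passed by limma in IVP, where 1 had an unadjusted p under 0.05. The shares over all probe sets tested were 16.2% higher and 11.4% lower in SCNT, and 8.42% higher and 9.49% lower in IVP. An unadjusted p under 0.05 was reached in IVP by 2279 of the 6892 probe sets tested.

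Of 7 tested genes of sterol efflux, storage and oxidation, 3 were higher and 4 lower than in FB in each of SCNT, IVP and AI, beside 41.6% to 45.0% of all probe sets called higher and 34.8% to 35.7% called lower. The 4 lower genes, LCAT, CYP27A1, CH25H and CYP39A1, exceeded log2 4 only on FB arrays, and APOA1 did only on conceptus arrays. Such genes were tested only because they were high on 1 side, so these counts are no result about the list. SOAT2, ABCA7, OSBP and LRP8 lay at 2.42 to 2.45 in all groups. APOA1 was higher in each conceptus group, at 11.45 to 12.23 on the conceptus arrays and 3.40, 3.56 and 3.47 on the FB arrays. SOAT1, which esterifies cholesterol for storage, was 9.03-fold higher in SCNT, 9.83-fold in IVP and 9.89-fold in AI than in FB (limma adjusted p = 4.45e-08, 3.24e-08 and 3.14e-08). Of 6 tested genes of cholesterol uptake and lysosomal release, 3 were higher and 3 lower than in FB in SCNT and in IVP, and 2 higher and 3 lower in AI. SCARB1 was higher in SCNT and IVP (log2 differences 2.95 and 2.79). VLDLR, a lipoprotein receptor, was at the floor of the table on the conceptus arrays and read 8.28, 8.37 and 8.18 on the FB arrays, at least 19.4-fold lower in each conceptus group. It passed the level filter only through the FB arrays. The other 3 VLDLR probe sets stayed at 2.42 to 2.61 on all 12 arrays, so the difference rests on 1 of its 4 probe sets. CH25H, which makes the oxysterol that acts on INSIG proteins, was at least 33.3-fold lower in SCNT, IVP and AI than in FB, where it read 9.16, 9.04 and 8.97. Between conceptus groups, SOAT1 did not pass: its log2 difference from AI was -0.13 in SCNT (limma adjusted p = 0.716) and -0.01 in IVP (0.981).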
